A study of Mus musculus with 4 samples.

Results

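The interferon response and MHC class I pathway was followed through 40 genes, listed by name for their known roles, in the liver of adult mice that lacked *Rap1* and of wild-type mice. They are regulators, a sensor of viral RNA, antiviral effectors, other interferon-induced proteins, interferon-inducible GTPases, chemokines, subunits of the immunoproteasome, proteins of peptide transport and loading, and class I molecules. The arrays carry accessions rather than gene names, and 38 of the 40 genes had at least 1 probe whose accession matched a RefSeq transcript, with 47 probes between them. *Mx1* and *Mx2*, a pair of antiviral GTPases, had none and were not analysed here. *Oas3*, an oligoadenylate synthetase, passed the background flag on 2 of 4 arrays in the *Rap1*-deficient channel and 1 of 4 in the wild-type channel, and was not tested. The remaining 37 genes were tested, of 13167 named genes in all, each through its brightest tested probe.

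The *Rap1*-deficient mice carried a constitutive whole-body deletion (*Rap1* -/-), made with a *cre* transgene driven by the adenovirus *EIIa* promoter. Both genotypes shared a C57BL6/129SV background (90%:10%), and an age of 30 weeks in the labels, which name no treatment, and the study's text gives them as females and gives an older age. RNA of each liver was set against RNA of a liver of the other genotype on a 2-colour array, with 3 biological replicates of each genotype by the design. On the arrays of pairs 1, 2 and 3 the *Rap1*-deficient liver was labelled with Cy5 and the wild-type liver with Cy3, and on the last array, numbered 1 in the labels, the dyes were swapped. Every log2 ratio below reads *Rap1*-deficient over wild-type. The ratios of the dye-swapped array were averaged with those of pair 1 before testing, which left n = 3 pairs.

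Interferons are secreted proteins that cells release on sensing viral nucleic acid (type I) or that T and NK cells release on activation (interferon gamma). Both act through receptors, JAK kinases and STAT proteins to switch on a large set of genes. The type I signal reaches them mainly through a complex with STAT2 and IRF9 that binds the interferon-stimulated response element, and interferon gamma mainly through the gamma-activated site. Among the genes induced are those that cut proteins into peptides (immunoproteasome), carry the peptides into the endoplasmic reticulum (TAP) and show them at the cell surface on MHC class I molecules. In liver, hepatocytes, Kupffer cells, the resident macrophages, and endothelial cells can all respond.

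Promoter windows from 250 bases before to 50 after the start site, from RefSeq on GRCm38.p6, were given for 34 of the 40 genes. The core of the interferon-stimulated response element, searched as 2 copies of GAAA with 2 other bases of any kind between them, on either strand and counting overlapping matches, occurred in the windows of 15 of these 34 genes (44.1%), against 3.99% of 27025 genes in the same table (3.44% of its 32851 windows). The gamma-activated site core, TTCNNNGAA, which reads the same on both strands, occurred in 9 of 34 (26.5%), against 9.55% of genes (8.30% of windows). Both occurred in 1 window for 3 of them, *Bst2*, *Igtp* and *Oas1a*. A match is a description of the letters, not evidence of a bound site. The windows below were chosen because their genes recur in the results: *Ifit1* and *Isg15* are antiviral effectors induced by type I interferon, *Gbp2*, *Igtp* and *Cxcl10* were among the genes with the largest ratios in pair 3, *Irf1* is a regulator with a single gamma-activated site, and *Tap1* passed the test. Capitals mark the matches, except in the last window.
*Ifit1*, chr19:34640639-34640938, plus strand: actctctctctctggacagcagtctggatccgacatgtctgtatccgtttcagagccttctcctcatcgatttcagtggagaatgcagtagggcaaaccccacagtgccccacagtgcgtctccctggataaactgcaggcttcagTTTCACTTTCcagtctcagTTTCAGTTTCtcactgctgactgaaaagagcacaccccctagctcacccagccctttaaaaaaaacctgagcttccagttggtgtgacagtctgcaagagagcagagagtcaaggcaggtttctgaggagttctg
*Isg15*, chr4:156200769-156201068, minus strand: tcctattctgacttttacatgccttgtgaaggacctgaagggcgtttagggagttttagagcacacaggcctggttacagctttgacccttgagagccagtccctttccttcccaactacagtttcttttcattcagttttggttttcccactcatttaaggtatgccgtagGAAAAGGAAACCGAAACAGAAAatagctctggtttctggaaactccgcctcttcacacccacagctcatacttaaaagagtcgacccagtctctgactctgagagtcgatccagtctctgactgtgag
*Gbp2*, chr3:142620413-142620712, plus strand: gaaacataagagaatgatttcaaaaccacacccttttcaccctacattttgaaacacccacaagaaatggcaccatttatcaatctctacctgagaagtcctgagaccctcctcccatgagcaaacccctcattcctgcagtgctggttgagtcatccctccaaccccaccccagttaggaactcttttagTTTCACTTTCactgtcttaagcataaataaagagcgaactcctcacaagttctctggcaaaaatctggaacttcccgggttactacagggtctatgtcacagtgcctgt
*Igtp*, chr11:58199306-58199605, plus strand: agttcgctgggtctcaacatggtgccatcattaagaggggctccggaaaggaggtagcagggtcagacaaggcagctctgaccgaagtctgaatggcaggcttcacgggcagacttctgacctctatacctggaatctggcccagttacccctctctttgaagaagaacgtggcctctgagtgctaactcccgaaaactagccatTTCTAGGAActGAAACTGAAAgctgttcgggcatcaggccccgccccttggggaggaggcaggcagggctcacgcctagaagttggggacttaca
*Irf1*, chr11:53769764-53770063, plus strand: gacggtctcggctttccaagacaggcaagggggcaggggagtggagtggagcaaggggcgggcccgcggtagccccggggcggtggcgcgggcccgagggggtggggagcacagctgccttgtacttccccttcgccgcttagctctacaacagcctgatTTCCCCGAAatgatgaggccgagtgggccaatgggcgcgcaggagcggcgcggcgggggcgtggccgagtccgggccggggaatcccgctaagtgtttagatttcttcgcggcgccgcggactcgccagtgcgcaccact
*Cxcl10*, chr5:92348840-92349139, minus strand: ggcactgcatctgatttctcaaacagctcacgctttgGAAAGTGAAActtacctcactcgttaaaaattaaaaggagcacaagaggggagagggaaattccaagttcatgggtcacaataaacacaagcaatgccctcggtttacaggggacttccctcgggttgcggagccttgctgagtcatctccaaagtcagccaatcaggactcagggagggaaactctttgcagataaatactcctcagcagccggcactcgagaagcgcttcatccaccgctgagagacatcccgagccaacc
*Tap1*, chr17:34187306-34187605, plus strand: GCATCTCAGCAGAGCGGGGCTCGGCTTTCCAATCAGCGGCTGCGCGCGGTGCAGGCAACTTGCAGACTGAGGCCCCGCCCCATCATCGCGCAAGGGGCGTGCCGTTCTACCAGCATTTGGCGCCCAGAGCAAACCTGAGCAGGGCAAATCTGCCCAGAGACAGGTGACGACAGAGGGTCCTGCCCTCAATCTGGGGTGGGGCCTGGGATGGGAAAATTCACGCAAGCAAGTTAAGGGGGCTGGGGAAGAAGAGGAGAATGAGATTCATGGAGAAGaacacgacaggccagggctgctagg
In the *Tap1* window the capitals mark 275 bases that are also part of the window of *Psmb9*, on the opposite strand at chr17:34187281-34187580. The peptide transporter subunit and the immunoproteasome subunit are neighbours that are read in opposite directions from this stretch, and neither window held either core. *Isg15* held 3 overlapping matches between 78 and 57 bases before its start site, *Ifit1* held 2, at -104 and -85, and in *Igtp* the gamma-activated site at -45 lay just before the response element at -34.

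**Figure D1:**
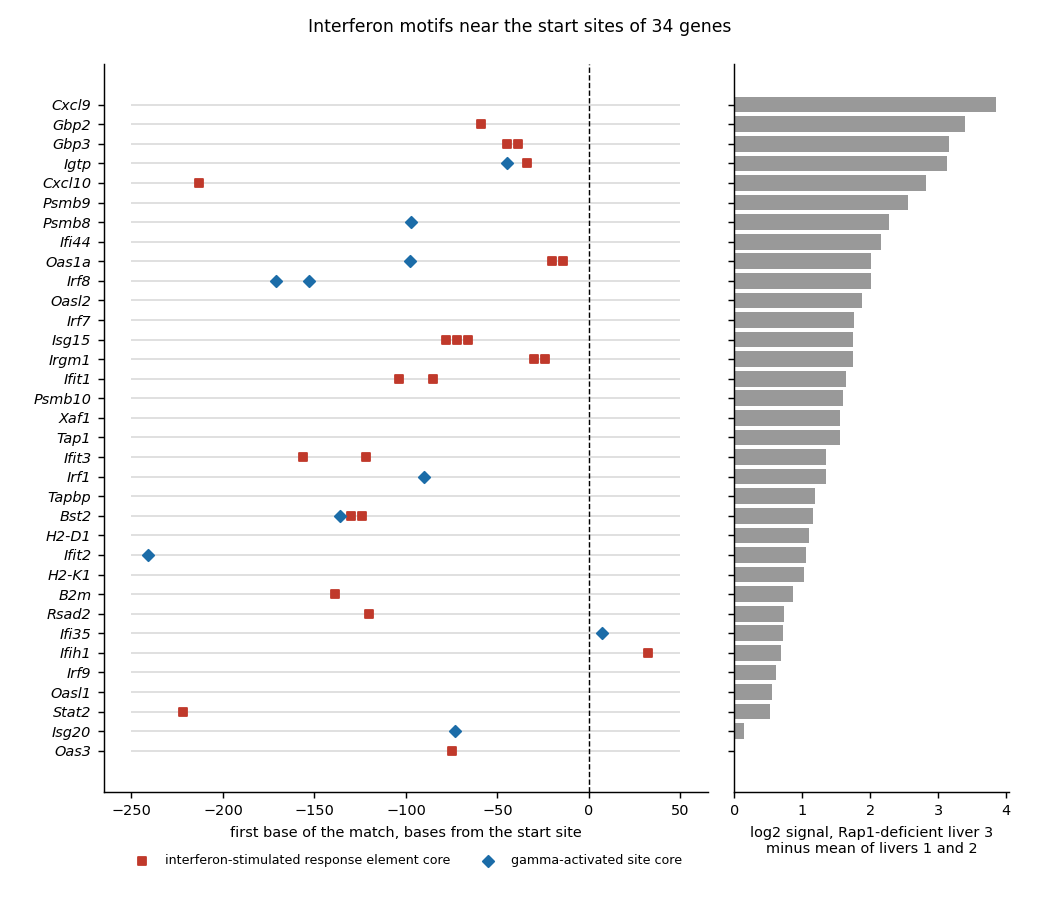
Left, position of each match in the promoter windows of 34 genes, on either strand, as the distance of its first base from the start site (dashed line), with the core of the interferon-stimulated response element as red squares and that of the gamma-activated site as blue diamonds. Right, bars from 0 give the log2 Cy5 signal of *Rap1*-deficient liver 3 minus the mean of livers 1 and 2 (no bar for *Oas3*, which was not tested). Genes with a match and genes without one are found along the whole order, from *Cxcl9* at 3.84 without a match to *Isg20* at 0.15 with one.

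The arrays differed among themselves in ways that touch every result. The targeted gene is *Terf2ip*, which encodes RAP1. Its probe A_52_P381806 rose well above background in the wild-type channel of all 4 arrays and in the *Rap1*-deficient channel of 0, with a signal at least 3.33-fold lower (adjusted p = 0.00859, limma), and a second probe was higher (log2 fold change 0.96), with its place relative to the deletion not given in the sources used here. The ratios of pairs 1, 2 and 3 correlated at r = 0.64 to 0.85 across the tested probes. With the dyes swapped, r with these pairs was -0.29 to -0.24 and the ratios had an SD of 0.24, against 0.48 to 0.51. In pairs 1 to 3, genotype and dye cannot be told apart. All 8 hepatocyte markers listed, among them *Alb* and *Hnf4a*, passed the background flag in both genotypes on each of the 4 arrays.

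The 2 channels also differed in their spread. Over the tested probes, the log2 signals of the wild-type livers on the arrays of pairs 1 to 3 had a median SD of 0.06 and correlated at r = 0.998. Those of the *Rap1*-deficient livers had a median SD of 0.14 and correlated at 0.982 to 0.992. The labels do not say whether each array carried a different wild-type liver, and this was not tested. If the same wild-type RNA was used more than once, the tests below leave out the spread among wild-type livers.

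Over the 3 pairs, 2 of the 37 genes rose in *Rap1*-deficient liver, 0 fell and 35 did neither (limma, Benjamini-Hochberg over all 27513 tested probes, FDR under 0.15). Of all named genes, 18.0% were higher and 16.1% were lower by the same rule. An unadjusted p under 0.05 (limma) was found for 2 of the 37, and for 4434 of the 13167 named genes. The median log2 fold change was 0.27, against 0.005 over all named genes, and the medians of the pairs, with both arrays of pair 1 averaged, were -0.31, -0.03 and 1.23 (SE 0.47). The median of the 37 genes thus lay below 0 in pairs 1 and 2 and above 0 in pair 3.

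*Tap1* and *H2-D1*, which carry peptides into the endoplasmic reticulum and present them at the cell surface, were the genes that passed. *Tap1*, a subunit of the peptide transporter, had log2 ratios of 1.12, 1.10 and 2.51 in pairs 1, 2 and 3 and -0.09 on the dye-swapped array. Its log2 fold change was 1.38 ± 0.37 (SE, n = 3; 2.60-fold; adjusted p = 0.0691, limma). *H2-D1*, a class I heavy chain, had log2 ratios of 0.47, 0.78 and 1.83 and -0.31 on the dye-swapped array. Its log2 fold change was 0.90 ± 0.32 (SE, n = 3; 1.86-fold; adjusted p = 0.118, limma). For both genes pairs 1 to 3 lay above 0, pair 3 was the highest, and the dye-swapped array lay below 0. Without pair 2, neither passed, and with a term for the dye over the 4 arrays 0 of the 37 genes passed in either direction, where 6.44% of named genes did. The estimates with the dye term were 0.74 for *Tap1* and 0.36 for *H2-D1*.

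Different probes of a gene did not always give the same answer. *H2-K1*, the other classical class I heavy chain listed, had log2 ratios of -0.52, -0.07 and 1.11 on its brightest probe (log2 fold change 0.26, adjusted p = 0.539, limma). A second probe gave 0.94, 1.10 and 2.17, and -0.55 on the dye-swapped array (1.16 ± 0.35, adjusted p = 0.0897, limma). *Irgm1*, an interferon-inducible GTPase of cell-autonomous immunity, had -0.28, 0.08 and 1.65 on its brightest probe (0.55, adjusted p = 0.306, limma) and 1.26, 1.07 and 2.62, with -0.50 on the dye-swapped array, on a second (1.36 ± 0.41, adjusted p = 0.0873, limma). On both genes the second probe lay above the brightest one in pairs 1 to 3 and below it with the dyes swapped. The class I heavy chains are near-identical in sequence, and a probe of 1 can also bind others, so their separate values are uncertain.

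**Figure D2:**
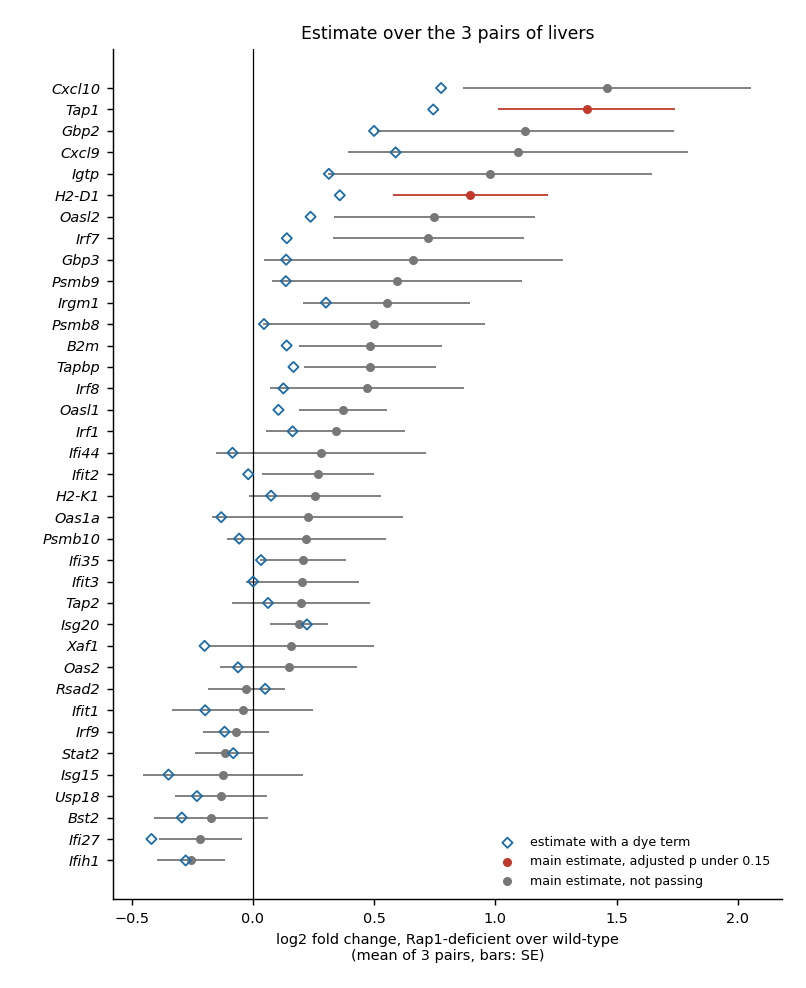
Log2 fold change of each of the 37 tested genes (points, mean of 3 pairs, bars SE), with the estimate of a model with a dye term over 4 arrays (open diamonds). *Tap1* (1.38) and *H2-D1* (0.90) passed, in red, and their dye-term estimates were 0.74 and 0.36.

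What set the 37 genes apart on the single arrays was the third pair. In pair 3 the ratios of all 37 were above 0, from 0.12 for *Ifih1*, a sensor of viral RNA, to 3.39 for *Cxcl9*, with a median of 1.23. Of all named genes, 50.6% were above 0 on that array. In pair 1 the ratios of 32 of the 37 were below 0, with a median of -0.56 and a range of -1.20 to 1.12, where 51.1% of all named genes were below 0. With median centring in place of loess, 13 genes rather than 5 were above 0 in pair 1 and all 37 remained above 0 in pair 3. In pair 2, 16 were above 0, with a median of -0.03, where 6274 of 13167 named genes were above 0. On the dye-swapped array 8 were above 0 and 29 below, with a median of -0.20, where 6795 of 13167 named genes were above. For 34 of the 37 genes the ratio was lowest in pair 1 and highest in pair 3, an order found in 24.1% of named genes. The exceptions were *Isg20*, *Rsad2* and *Tap1*. The 4 arrays gave the same sign for 1 of the 37 genes, *Cxcl10*, and for 2872 of 13167 named genes.

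**Figure D3:**
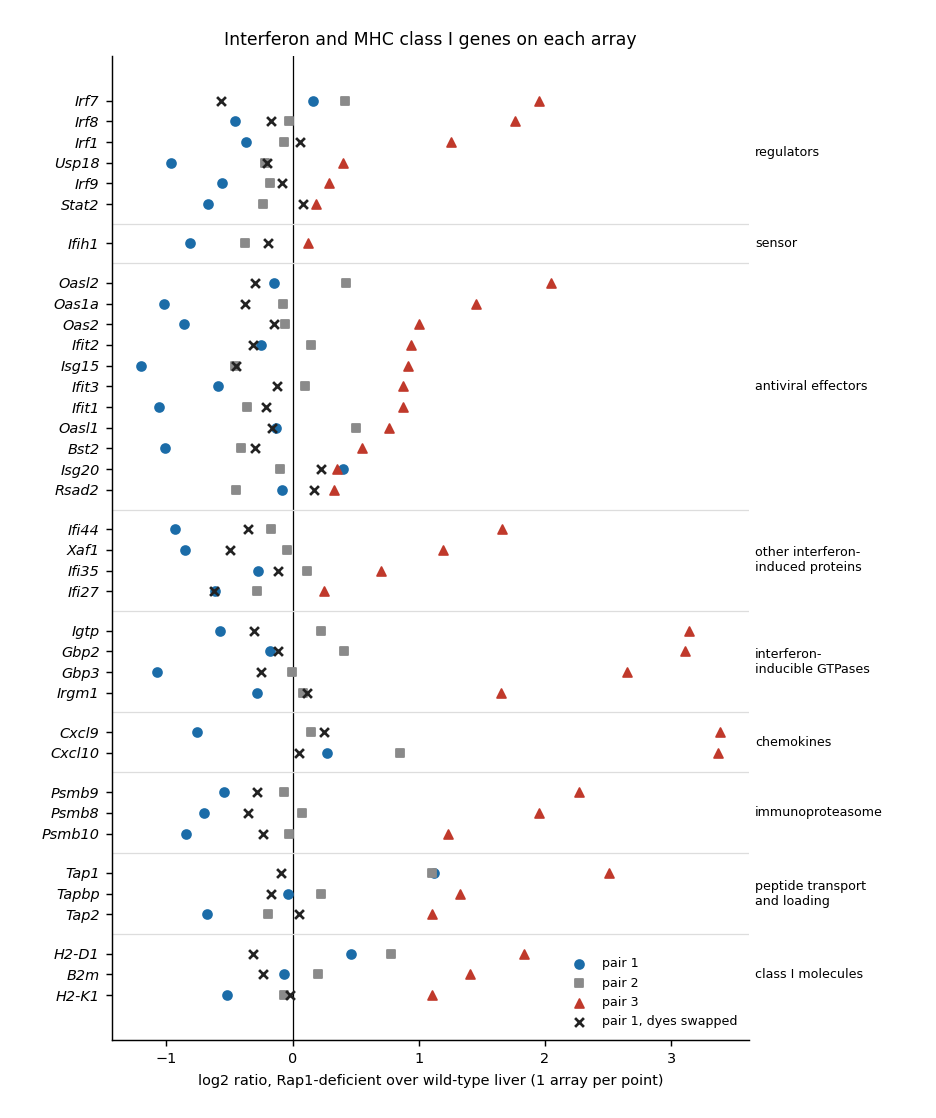
Log2 ratio of *Rap1*-deficient over wild-type liver on each of the 4 arrays for the 37 tested genes, grouped by role. Triangles (pair 3) lie above 0 for every gene, circles (pair 1) lie below 0 for 32 of 37, and crosses give the array with the dyes swapped.

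The separate channels showed which livers carried this. Signals of the 3 *Rap1*-deficient livers were all read in Cy5, so a comparison among them does not involve the dye. The SD of the log2 Cy5 signal over these livers was above that of the Cy3 signal over the wild-type livers for 37 of the 37 genes, with medians of 0.90 and 0.05 (0.15 and 0.06 over all named genes). This held for 84.3% of all named genes, and the comparison of the channels crosses dyes. *Rap1*-deficient liver 3 had the highest Cy5 signal of the 3 for 36 genes, as for 34.2% of all named genes, and liver 1 the lowest for 35, as for 33.7%. For 32 of the 37, the mean of the wild-type livers lay between *Rap1*-deficient livers 1 and 3, as it did for 14.6% of all named genes. *Isg15*, a ubiquitin-like protein induced by type I interferon, is an example. Its log2 signal was 10.46, 11.24 and 12.60 in *Rap1*-deficient livers 1, 2 and 3 and 11.66, 11.70 and 11.68 in wild-type livers 1, 2 and 3. Liver 1 was below all wild-type values and liver 3 above them. The place of liver 1 among the Cy5 signals rests on 1 array. On the dye-swapped array, in Cy3, *Isg15* read 11.01 in the *Rap1*-deficient liver, again below the wild-type liver (11.46). One liver cannot be tested against 2 others, and these values are a description. RNA integrity numbers, a measure of RNA quality, were given as the same range, 6.6 to 8.7, for every sample and for no single liver. The part of RNA quality was not tested.

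**Figure D4:**
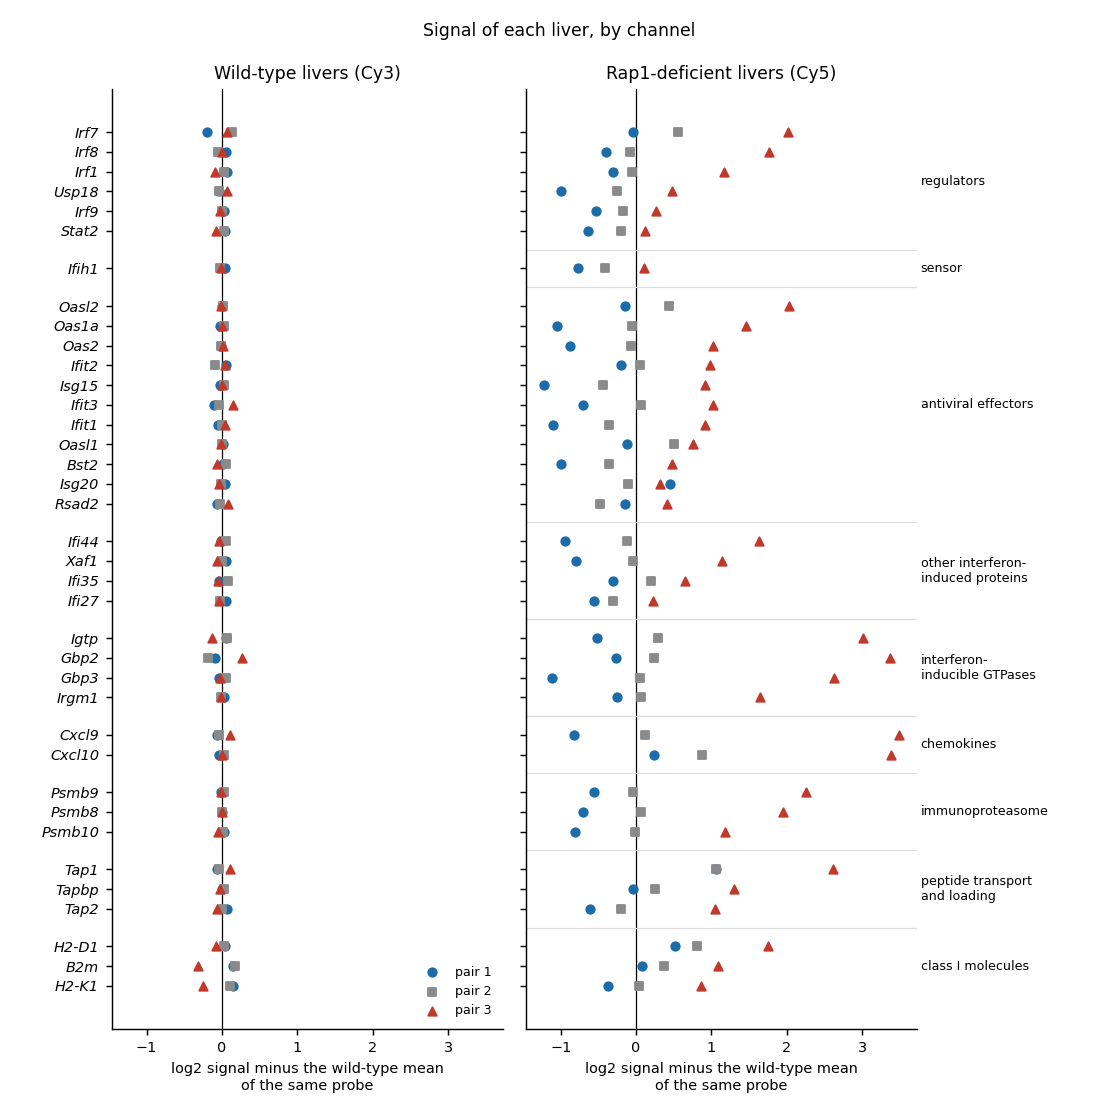
Log2 signal of each liver on the arrays of pairs 1, 2 and 3, less the wild-type mean of the same probe, for wild-type livers in Cy3 (left) and *Rap1*-deficient livers in Cy5 (right). The wild-type points cluster at 0 (median SD 0.05), while the *Rap1*-deficient points spread from liver 1 to liver 3 (median SD 0.90).

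The size of the difference in pair 3 varied with the role of the gene. The chemokines *Cxcl9* and *Cxcl10*, which draw activated T cells and are strongly induced by interferon gamma, led. *Cxcl10* had log2 ratios of 0.27, 0.85 and 3.37 in pairs 1, 2 and 3 and 0.05 on the dye-swapped array, which gave 1.46 ± 0.59 (SE, n = 3; adjusted p = 0.152, limma). *Cxcl9* had -0.76, 0.15 and 3.39, and 0.25 with the dyes swapped (1.09 ± 0.70, adjusted p = 0.318, limma). Its Cy5 signal was 12.74 in *Rap1*-deficient liver 3, against 8.43 and 9.37 in livers 1 and 2 and 9.19 to 9.36 in the wild-type livers of the same arrays. Thus 1 of 3 *Rap1*-deficient livers stood apart for both chemokines, and neither gene passed.

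The interferon-inducible GTPases, which act on the vacuoles of intracellular pathogens, came next. *Gbp2*, a guanylate-binding protein, had log2 ratios of -0.18, 0.41 and 3.11, and -0.11 on the dye-swapped array (1.12 ± 0.61, adjusted p = 0.251, limma). *Igtp* had -0.58, 0.23 and 3.14, and -0.31 (0.98 ± 0.67, adjusted p = 0.347, limma). The value of *Gbp3* in pair 3 was 2.65, with -1.08 in pair 1. The median of the 4 GTPases in pair 3 was 2.88, and in pair 1 all of them lay below 0.

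The immunoproteasome subunits replace their constitutive counterparts when interferon is present. *Psmb9*, *Psmb8* and *Psmb10* had log2 ratios of 2.27, 1.95 and 1.23 in pair 3 and of -0.54, -0.70 and -0.84 in pair 1. Their adjusted p-values over the 3 pairs were 0.450, 0.475 and 0.662 (limma). The constitutive proteasome and its activators, listed for comparison, did not share this pattern. Of 37 genes of that list tested, 5 rose (13.5%), 7 fell (18.9%) and 25 did neither, against 18.0% and 16.1% of all named genes, and the median in pair 3 was -0.11, with 11 of 37 above 0. Within it, *Psme1* and *Psme2*, the interferon-inducible subunits of the proteasome activator PA28, had 1.08 and 0.80 in pair 3 and did not pass.

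Peptide transport, loading and the class I molecules were closer together. In pair 3 *Tapbp*, the chaperone that bridges TAP and class I molecules, had a log2 ratio of 1.33, *Tap2* 1.10, *B2m*, the light chain of all class I molecules, 1.40 and *H2-K1* 1.11. In pairs 1 and 2 these 4 genes lay between -0.68 and 0.22. Both TAP subunits are needed for transport. *Tap1* differed from its partner *Tap2* on the first array of pair 1, with 1.12 against -0.68. On the dye-swapped array the values were -0.09 and 0.05. The *Tap1* probe was also dim, with wild-type log2 signals of 6.81 to 6.97 in pairs 1 to 3, against 12.27 to 12.39 for *Tap2*.

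Among the regulators, *Irf7*, *Irf8* and *Irf1*, transcription factors of the interferon system, had log2 ratios of 1.95, 1.76 and 1.25 in pair 3. *Usp18*, which removes ISG15 and dampens the type I receptor, had 0.40, *Irf9* 0.29 and *Stat2* 0.18. *Irf8* is also expressed in myeloid cells without interferon.

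Of the 11 antiviral effectors, 9 were lowest in pair 1 and highest in pair 3, as were all 4 of the other induced proteins. *Oasl2*, an oligoadenylate synthetase-like protein, had -0.15, 0.42 and 2.04, and -0.30 on the dye-swapped array (0.75 ± 0.41, adjusted p = 0.259, limma). *Isg15* had -1.20, -0.46 and 0.91, and -0.45 on the dye-swapped array. *Ifit1*, which binds viral RNA, had -1.06, -0.36 and 0.87, and -0.21 there. The median of the 11 antiviral effectors was -0.60 in pair 1 and 0.88 in pair 3, and that of *Ifi44*, *Xaf1*, *Ifi35* and *Ifi27* was -0.73 and 0.95. *Rsad2*, also known as viperin, and *Isg20*, an exonuclease, had 0.33 and 0.36 in pair 3, with 0.17 for *Rsad2* on the dye-swapped array and 0.40 for *Isg20* in pair 1.

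Leaving out a pair changed which genes passed. Without pair 1, 13 genes were higher and 0 lower, where 23.4% of named genes were higher; among them were *Oasl1*, *Irf7*, *Gbp2* and *B2m*. Without pair 3, *Tap1* was higher and 4 genes were lower, *Isg15* (-0.64), *Bst2* (-0.53), *Ifit1* (-0.50) and *Ifih1* (-0.44), where 3.94% of named genes were lower. Without pair 2, 0 passed. The median log2 fold change of the 37 genes was -0.17 without pair 3 and 0.60 without pair 1.

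The difference between livers was also set beside the promoter letters. Among tested genes, *Rap1*-deficient liver 3 exceeded the mean of livers 1 and 2 by a median of 1.70 on the log2 Cy5 scale for 14 genes with the response element core and by 1.55 for 19 genes without it. For the gamma-activated site core the medians were 1.34 for 9 genes with it and 1.57 for 24 without. *Cxcl9*, with the largest excess (3.84), had neither core in its window, and *Ifih1* (0.69) and *Stat2* (0.53) had the response element core.

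The other genes of the pathway were taken from further lists. Of 11 interferon genes, 4 were tested and 0 passed, with a range of 0.02 to 0.21 in pair 3. That range does not include *Ifng*, interferon gamma itself, which was not tested. It passed the background flag on 3 of 4 arrays in the *Rap1*-deficient channel and 1 of 4 in the wild-type channel. The log2 ratios of *Ifng* were -0.144, 0.077 and 1.603 in pairs 1, 2 and 3 and 0.124 on the dye-swapped array. Most of its wild-type signals did not pass the flag, and these ratios are a description. *Ifnb1* passed the flag on 0 arrays in either channel.

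Among 17 receptors, kinases and transcription factors of the JAK-STAT pathway, 3 rose (17.6%), 2 fell (11.8%) and 12 did neither, which is near the shares of all named genes, 18.0% and 16.1%. Higher were *Tyk2*, a kinase of the type I receptor (log2 fold change 0.54), *Ifngr1*, the ligand-binding chain of the interferon gamma receptor (0.60), and *Irf2bp2* (0.37). On the dye-swapped array they had -0.16, -0.18 and 0.54. *Jak1*, a kinase of both kinds of receptor, was lower (-0.23). Of 9 feedback inhibitors, 3 were higher (33.3%) and 2 lower (22.2%). *Trim24*, with the smallest p (-0.43 ± 0.09, adjusted p = 0.0507, limma), and *Socs3*, which inhibits cytokine receptors (-0.57 ± 0.15, adjusted p = 0.0696, limma), were below 0 on all 4 arrays, while *Socs1*, the main inhibitor of interferon gamma signalling, had 1.97 in pair 3, -0.28 in pair 1 and -0.09 in pair 2.

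Of 18 nucleic acid sensors and adaptors tested, 6 rose (33.3%), 3 fell (16.7%) and 9 did neither. The shares of all named genes were 18.0% and 16.1%. *Ticam1* and *Traf3*, adaptors, and *Tbk1*, the kinase that activates IRF3, were higher by 0.54, 0.40 and 0.56. On the dye-swapped array they had 0.05, 0.48 and -0.36. *Dhx58*, an RNA helicase also known as LGP2, was lower (-0.57), with 0.002 on that array. Among 57 other interferon-stimulated genes, 7 rose (12.3%), 2 fell (3.51%) and 48 did neither, against the same 18.0% and 16.1%. The smallest p in each direction was that of *Zc3hav1*, an antiviral zinc finger protein (0.79), and *Nmi* (-0.51). With the dyes swapped, *Zc3hav1* had -0.26 and *Nmi* 0.06. This list repeated the pattern of the arrays. In pair 3, 50 of its 57 genes were above 0 with a median of 0.77, and in pair 1, 17 were. Its highest values in pair 3 were those of *Ccl5*, a chemokine (3.52), *Gbp5* (2.94) and *Gbp4* (2.54). Of 25 further genes of peptide loading and class I heavy chains, 8 were higher (32%) and 6 lower (24%), against 18.0% and 16.1%. *H2-Q7* (0.73), *H2-Q6* (0.96) and *Tapbpl* (0.75) were higher, each below 0 on the dye-swapped array. *Pdia3*, a chaperone of the loading complex also known as ERp57, was lower (-0.52), with 0.22 on that array.

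Markers of immune cells were high in pair 3 as well. In bulk tissue, a change in the number of cells of a type and a change in RNA per cell cannot be told apart. Of 11 Kupffer cell and macrophage markers, 10 were above 0 in pair 3, with a median of 1.34 and a range of -0.14 to 2.71, and 1 was above 0 in pair 1, with a median of -0.44. All 11 were lowest in pair 1 and highest in pair 3. *Marco*, a scavenger receptor, had -0.98, -0.000722 and 2.71, and *Clec4f*, a defining Kupffer cell lectin, had -0.33, 0.53 and 0.97.

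The 4 shared leukocyte markers lay between 0.95 and 2.17 in pair 3, with *Ptprc*, which encodes CD45, at 0.95. Of 10 T and NK cell markers, 8 were above 0, with a range of -0.33 to 3.52 and a median of 0.89. The cytotoxic granule protease *Gzma* had 3.14, whereas *Cd8b1* had -0.06, and *Cd8a*, *Klrb1c* and *Ncr1* did not pass the filter on background. The neutrophil markers *S100a8* and *S100a9* had 1.83 and 1.78. Medians in pair 3 were 0.11 for plasmacytoid dendritic cell markers, 0.25 for those of B and plasma cells, 0.20 for those of sinusoidal endothelial cells and 0.13 for those of hepatocytes. *Ccl5* is both a T cell marker and an interferon-stimulated gene. The part of these cells in the values of the interferon and class I genes was not tested.

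**Figure D5:**
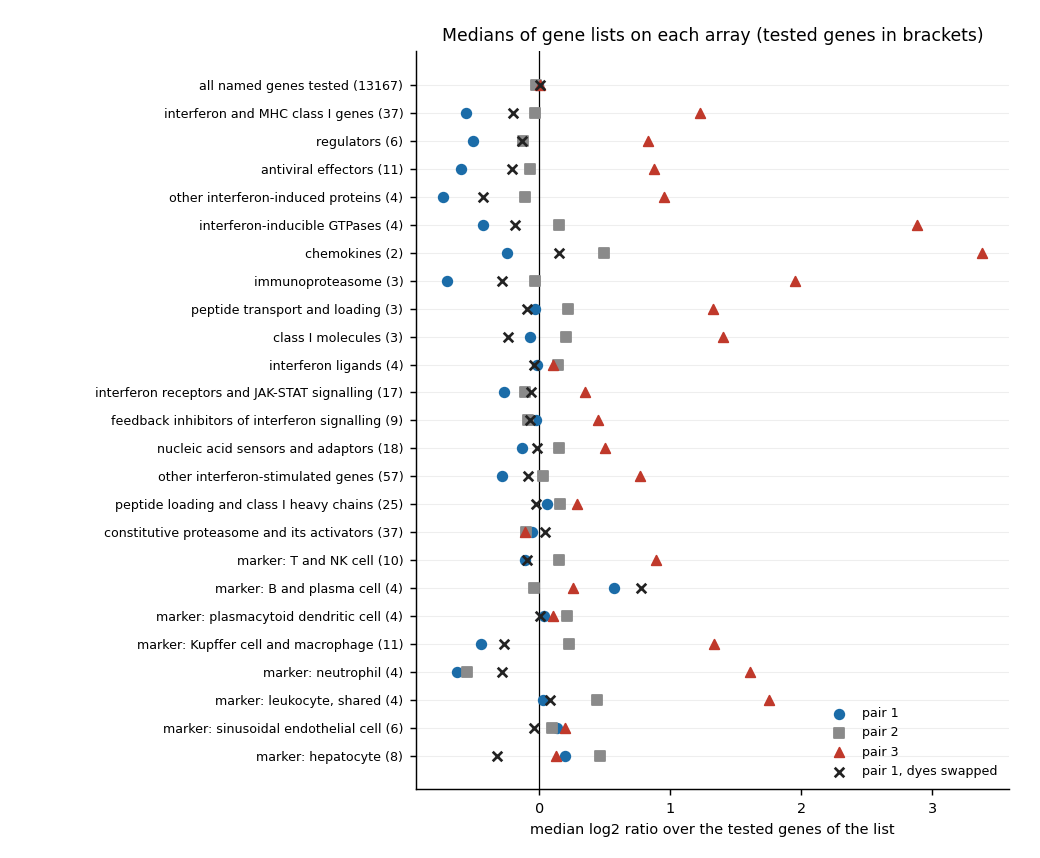
Median log2 ratio on each array for all named genes, for the 37 interferon and MHC class I genes and their roles, for further lists of the pathway and for cell type markers, with the number of tested genes in brackets. Triangles (pair 3) lie far to the right for the interferon and class I genes (1.23) and for macrophage (1.34), neutrophil (1.61) and shared leukocyte (1.75) markers, and close to 0 for the constitutive proteasome (-0.11) and hepatocyte markers (0.13).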

How the data were processed

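Liver RNA of *Rap1*-deficient and wild-type mice was compared on 4 Agilent 2-colour arrays (62976 spots, 55681 probes). The authors deposited spot intensities from Feature Extraction (10.7.3.1 by the file headers), among them median and background intensities as scanned, processed intensities, background-subtracted and dye-normalized by that software, and a log10 ratio of Cy5 over Cy3. The deposited value table holds log2 ratios credited to limma in the submitters' processing notes, with its dye-swapped column already turned and its background correction not given in the sources used here. Its column medians were -0.0119, -0.0157 and -0.0203 for replicates 1 to 3 and 0.000826 for the dye swap.

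Median intensities were background-corrected (normexp, offset 50), and a within-array loess followed, control spots having weight 0 (limma 3.58.1, R 4.3.3). Outlier spots were left out and repeated spots averaged. Probes entered the test if a share of 0.5 or more of their spots exceeded background, by the software's flag, on all arrays in 1 genotype or both, which kept 27513 (49.4%). Between 50.1% and 56.4% of spots per channel were well above background and 0 were saturated. The number of arrays limits the precision. All arrays shared a slide and a scan. The intercept over 3 pairs was tested with lmFit and eBayes at an FDR under 0.15. Channel values were quantile-normalized between arrays on mean intensity and are open to dye bias, as is the bound for *Terf2ip*, which sets the wild-type mean against the lowest signal well above background.

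Accessions named 26056 probes (46.8%) through RefSeq on GRCm38.p6. Each gene is given by its brightest tested probe. Array values are described for all genes on the list, with full statistics for those that passed and the 5 others with the largest changes, and further lists by up to 4 genes with the smallest p and, chosen after their values were seen, single genes that were high in pair 3. The genes and lists were chosen with earlier results of these data known. Some genes of the further lists are counted in them and not reported by name here. The dye swap's number was checked over 581 probes with an SD above 0.7 among the *Rap1*-deficient livers, a limit set after the values were seen: its ratios correlated with the difference of each pair from the other pairs at 0.30, -0.13 and -0.22, and over all tested probes at 0.05, -0.04 and -0.02. The test was run on simulated data first. Alternatives were other background corrections and normalizations, a dye term, other uses of the dye swap, other filters, other probe choices and leaving out each replicate.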

Additional observations from a re-analysis of the deposited data

Results flagged for a closer look

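All 4 probes of the interferon and MHC class I genes that passed the test had ratios above 0 in pairs 1, 2 and 3. On the array with the dyes swapped, all 4 were below 0. The log2 ratio there was -0.0911 for *Tap1*, -0.310 for *H2-D1*, -0.552 for the second probe of *H2-K1* and -0.504 for the second probe of *Irgm1*. The difference between the dye orientations was not tested for these probes.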

How the results depend on the processing

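The number of the 37 genes that were higher was 2, and it was 1 with median centring, 1 with no filter, 0 with a dye term, 0 with the dye swap as its own replicate and 5 without the dye-swapped array. Leaving out each replicate gave 0 to 13 higher and 0 to 4 lower. The number lower was 0, and 1 (*Ifih1*) on the authors' value table. The causes were not tested. With no background correction, the processed signals, the value table, probes well above background in both genotypes, and the mean over a gene's probes, the number higher was 2 or 3. The median log2 fold change, 0.27 in the main fit, ranged from -0.17 without pair 3 to 0.60 without pair 1, so its sign changed. Leaving out 1 of 3 pairs always moves a mean by less than the SD between pairs (0.82). That SD is therefore no measure of stability for those settings. *Tap1* was above 0 under all 13 alternatives (0.74 to 2.13, adjusted p 0.0121 to 0.311, limma) and passed under 10, *H2-D1* (0.36 to 1.31, adjusted p 0.0300 to 0.528, limma) under 7. *Cxcl10* (0.51 to 2.11, adjusted p 0.0615 to 0.538, limma) passed under 4. The number of genes above 0 in pair 1 was 5, and 13 with median centring; in pair 3 it was 37 (of 38 genes with no filter) under each of 6 alternatives of processing chosen after seeing the data. Beyond the pairing on each array, the only pairing used was that of the dye-swapped array with pair 1, by the number that they share in the labels.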
